A study of Mus musculus with 22 samples.

Results

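Lungs of mice given ABT-263 were compared after 8 days in hypoxia and in normoxia. The 11 libraries used, 5 from hypoxia and 6 from normoxia, were chosen by their sample titles from 22 libraries in all. Every animal was a young male C57BL6/j mouse, and the groups compared both received ABT-263 at 50 mg/kg per day. The other 11 libraries came from mice given the vehicle, 6 in hypoxia and 5 in normoxia, and are used here to set the same oxygen difference beside it. The oxygen level, the route of dosing and whether animals of a group shared a cage are not given in the sources used here, so that p-values measure the spread between these libraries. Poly(A) RNA of whole lung tissue was read, and in such bulk samples fewer cells of a type and less RNA per cell cannot be told apart. Of 54532 genes in the table, 16638 passed the filter on low counts and were tested.

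Hypoxia stabilises the HIF transcription factors, which bind a short element in the DNA of genes for glucose uptake, glycolysis, mitophagy and vessel growth. In the lung, small pulmonary arteries constrict in low oxygen, and over days their walls gain smooth muscle, pericyte coverage and matrix while pressure in the pulmonary circulation rises. ABT-263, also called navitoclax, occupies the groove of BCL-XL, BCL-2 and BCL-W, proteins that keep cells alive, and serves as a senolytic, a drug that removes senescent cells. Platelets and several lymphocyte classes are known to depend on these proteins.

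Lung markers were high in all 11 libraries. Sftpc, the surfactant protein of alveolar type 2 cells, had 23405 to 31566 CPM (counts-per-million, scaled with the normalisation factors), Ager of alveolar type 1 cells 1506 to 2425 and the endothelial adhesion protein Pecam1 432 to 673. Library totals ran from 12081262 to 15744193 counts in normoxia and from 11509007 to 13881380 in hypoxia. Normoxia replicate 2 stood apart by genes of skeletal muscle, which summed to 3061 CPM against 278 to 389 in the other 5 normoxia libraries and 265 to 378 in hypoxia. Genes of the cell cycle list summed to 908 and 868 CPM in normoxia replicates 2 and 6, against 270 to 401 in the other 4 and 417 to 804 in hypoxia. Adipose markers were low in normoxia replicates 3 and 5, at 34.9 and 54.6 CPM summed over the list, against 274 to 386 in the other 4 and 175 to 423 in hypoxia, and 1 of 10 tested adipose genes passed, though not without the 3 libraries named next or with the tag. Replicate 1 of each ABT-263 group, and of the hypoxia vehicle group, carries a treatment tag that names the other treatment. Titles were followed, and counts that moved by over 1.5 times without these 3 libraries, or with the tag in place of the title, are given beside the result.

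Promoter sequence is shown first for genes on which 2 of the results turn, the response of HIF targets and that of heat shock genes. The sequences are from RefSeq on GRCm38.p6, run 5′ to 3′ on the strand of the gene and end at the base before its start. In the first 3, capitals mark the core of the HIF element, ACGTG or GCGTG, or its reverse complement. Bnip3 (chr7:138909507-138909666, minus strand) and Fam162a (chr16:36071562-36071811, minus strand) code for mitochondrial proteins that act in mitophagy and cell death and were higher in hypoxia. Slc2a1 (chr4:119108585-119108744, plus strand), the glucose transporter GLUT1, was lower.
Bnip3: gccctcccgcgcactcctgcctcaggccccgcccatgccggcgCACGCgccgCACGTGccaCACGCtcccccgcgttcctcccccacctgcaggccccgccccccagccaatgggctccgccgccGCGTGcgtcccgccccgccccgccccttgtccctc
Fam162a: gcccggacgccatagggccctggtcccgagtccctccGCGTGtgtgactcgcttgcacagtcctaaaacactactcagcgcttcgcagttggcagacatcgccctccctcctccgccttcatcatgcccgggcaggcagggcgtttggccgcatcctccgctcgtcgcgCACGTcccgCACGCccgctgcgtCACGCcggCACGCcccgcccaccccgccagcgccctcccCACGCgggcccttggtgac
Slc2a1: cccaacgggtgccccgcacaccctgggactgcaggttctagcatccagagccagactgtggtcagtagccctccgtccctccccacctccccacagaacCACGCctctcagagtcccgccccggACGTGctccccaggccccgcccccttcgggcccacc
In the next 3, capitals mark GAA and TTC of the heat shock element core GAANNTTC, which reads the same on both strands. Hspa1a (chr17:34972157-34972316, minus strand) and Hspa1b (chr17:34959239-34959398, minus strand) code for the inducible HSP70 chaperones, and 159 of 160 bases of their printed stretches were identical. Dnaja1 (chr4:40722308-40722467, plus strand), a co-chaperone of HSP70, has 3 promoters in the table, and the one holding the motif is shown.
Hspa1a: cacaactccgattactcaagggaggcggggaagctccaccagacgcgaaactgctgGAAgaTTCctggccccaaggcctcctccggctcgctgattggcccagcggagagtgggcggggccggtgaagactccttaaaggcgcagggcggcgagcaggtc
Hspa1b: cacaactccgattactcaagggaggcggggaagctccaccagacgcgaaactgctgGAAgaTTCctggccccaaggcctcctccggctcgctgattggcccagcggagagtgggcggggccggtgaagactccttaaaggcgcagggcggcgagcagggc
Dnaja1: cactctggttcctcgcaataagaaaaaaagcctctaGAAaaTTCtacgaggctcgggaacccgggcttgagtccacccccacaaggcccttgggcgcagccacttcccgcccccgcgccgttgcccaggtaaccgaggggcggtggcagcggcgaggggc
The Bnip3 stretch held 5 matches, 2 of which are both readings of a single CACGTG, the Fam162a stretch 6 and the Slc2a1 stretch 2. The heat shock core lay 104 bases before the start of Hspa1a and of Hspa1b, and 124 bases before that of Dnaja1. Over all 32851 promoters, scanned from 250 bases before to 50 bases after the start on both strands, 43.8% held ACGTG or GCGTG and 7.86% held GAANNTTC. Counted by gene, 31 of the 32 tested HIF targets that matched a promoter held ACGTG or GCGTG, against 7774 of all 12178 tested genes that matched. These included all 7 matched genes that rose and all 6 that fell. Among 21 matched genes of the heat shock list, 9 held GAANNTTC, against 862 of the 12178. Of the 9 genes of this list that rose 4 held it, and Dnajb1 was not among them. None of the 3 that fell did. Promoters of genes higher by at least 2-fold held ACGTG or GCGTG in 43.3% of 245 cases and those of genes lower by at least 2-fold in 39.6% of 187, against 58.4% of the 15487 promoters of tested genes. These matches describe the letters of the windows only.

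The comparison asked which genes differ between hypoxia and normoxia when both groups receive ABT-263. By edgeR's quasi-likelihood test with Benjamini-Hochberg adjustment over all genes tested, 6525 genes (39.2%) passed an adjusted p of 0.05, of which 2986 (17.9% of those tested) were higher in hypoxia and 3539 (21.3%) lower. With at least a 2-fold change required as well, 308 (1.85%) were higher and 244 (1.47%) lower. Every hypoxia library lay above every normoxia library for 1409 genes (8.47%) and below for 1512 (9.09%). The median log2 fold change over all genes was -0.02, and the median standard error 0.11. All adjusted p-values below are from this fit, and log2 fold changes are hypoxia minus normoxia with ABT-263 unless vehicle is named, with their standard errors (SE).

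Among the largest differences, Ntrk2 (chr13:58806569-59133970), the receptor of brain-derived neurotrophic factor, ranged from 5.59 to 10.8 CPM in normoxia with a median of 7.31. In hypoxia replicates 1 to 5 it stood at 175, 134, 135, 108 and 166 CPM, every one far above the highest normoxia library. Its log2 fold change was 4.17 ± 0.16 (adjusted p 8.4e-15). Olfr78, an olfactory receptor known from oxygen-sensing cells of the carotid body and from vascular smooth muscle, was at 0 to 0.404 CPM in normoxia (median 0.131) and at 3.61, 5.30, 4.99, 5.16 and 3.06 CPM in hypoxia. It rose by 4.67 ± 0.33 (adjusted p 1.8e-10), a fitted value that depends on the prior count because normoxia libraries included 0.

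Both hyaluronan-related genes among the largest rises were low in normoxia. Ptx3, a soluble pattern recognition protein that also binds hyaluronan-rich matrix, ran from 0.329 to 1.12 CPM (median 0.719) in normoxia and was 11.4, 6.78, 7.04, 12.2 and 9.58 CPM in hypoxia. Cemip, which takes part in breaking down hyaluronan, went from 0.407 to 1.15 CPM (median 0.775) to 7.86, 5.997, 7.53, 7.78 and 6.19 CPM. Their log2 fold changes were 3.63 ± 0.23 and 3.17 ± 0.24, and neither gene had overlapping groups. Of the 12 genes of the hyaluronan list tested, 3 rose, the third being the scavenger receptor Stab2 (1.88 ± 0.24), and the hyaluronan receptor Lyve1 of lymphatic endothelium and macrophages fell by 1.05 on the log2 scale (SE 0.25). Lyve1 overlapped, because hypoxia replicate 4 was at 134 CPM against 39.9 to 71.5 in the other 4 and 124 to 188 in normoxia. The tyrosine phosphatase Ptprr rose by 3.17 ± 0.15 and Slc26a10, of the anion exchanger family, by 2.86 ± 0.21.

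On the falling side, Ankrd63 (chr2:118699103-118703963), an ankyrin repeat protein, had the largest difference. It was between 9.37 and 17.5 CPM in normoxia (median 11.52) and at 0.505, 0.261, 0.573, 0.354 and 0.413 CPM in hypoxia, a log2 fold change of -4.88 ± 0.23 (adjusted p 6.3e-14). Olfm2, a secreted olfactomedin protein known from smooth muscle, went from 9.85 to 26.3 CPM (median 12.2) to 1.66, 1.56, 0.818, 1.41 and 1.49 CPM (-3.45 ± 0.27). Ppp2r2c, a regulatory subunit of protein phosphatase 2A, fell by 2.49 ± 0.25. The groups of these 3 genes did not overlap.

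Another 7 of the 12 largest falls were genes of skeletal muscle: Atp2a1, Tnnt3, Mylpf, Ryr1, Neb, Tnni2 and Ckm. These moved with a single library. Atp2a1, the calcium pump of fast muscle, was at 518 CPM in normoxia replicate 2, while the normoxia median was 7.82 and hypoxia libraries ran from 1.31 to 4.90 CPM. With that library left out the log2 fold changes of Mylpf, Neb and Tnni2 changed sign, to 0.16, 0.76 and 0.68, and those of Atp2a1, Tnnt3, Ryr1 and Ckm shrank to -0.99, -0.02, -0.01 and -0.22 and no longer passed. The calls of Neb, Tnni2 and Ckm were also lost without several single hypoxia libraries. Of 16 tested genes in the skeletal muscle list, 9 passed as lower and 1 as higher; without normoxia replicate 2 these were 1 and 5, and without hypoxia replicates 2, 3 or 5 the lower were 5. The share of counts in that list was 0.528% in this library and 0.0283% to 0.0377% in the others of its group (difference of means -0.0817 percentage points, exact two-sided permutation test p = 0.81).

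**Figure D1:**
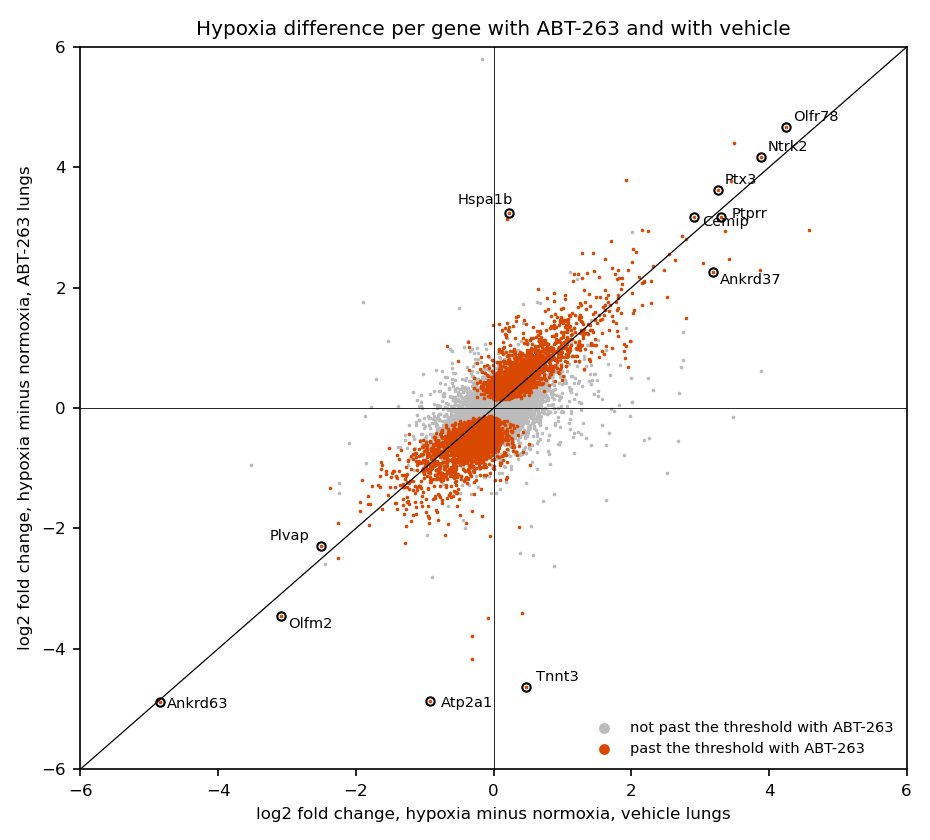
Log2 fold change between hypoxia and normoxia for each tested gene with vehicle (x axis) and with ABT-263 (y axis); orange points passed with ABT-263 and the diagonal marks equal values. Ntrk2, Olfr78, Ptx3, Ankrd63, Olfm2 and Plvap lie near the diagonal, Hspa1b lies above it, and Atp2a1 and Tnnt3, high in normoxia ABT-263 replicate 2, lie below it.

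Most genes of the matrix and pericyte lists rose. In the extracellular matrix list 25 of 37 tested genes rose and 1 fell, with a median log2 fold change of 0.69, and in 19 of the 37 every hypoxia library was above every normoxia library. The gene that fell did not pass without any single one of normoxia replicates 5 or 6, hypoxia replicates 2, 3 or 5, or the 3 libraries of conflicting labels. Of 14 pericyte markers 12 rose and none fell (median 0.56). The smooth muscle list was divided, with 4 of 19 higher, 3 lower and a median of -0.04. These shares lie near the 17.9% higher and 21.3% lower of all genes. In fibroblast markers, which other matrix-producing cells share in part, 5 of 18 rose and 1 fell (2 without hypoxia vehicle replicate 5), with a median of 0.17.

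Mfap4 (chr11:61485431-61488900), a protein of elastic microfibrils, had 386 to 573 CPM in normoxia with a median of 476. Its hypoxia values were 1657, 1504, 1529, 1797 and 2070 CPM, and the log2 fold change was 1.83 ± 0.13 (adjusted p 4.3e-10). Eln, which codes for elastin, was at 206 to 405 CPM in normoxia (median 269) and at 1148, 797, 796, 1919 and 925 CPM in hypoxia (1.97 ± 0.23), so that replicate 4 was highest but no value reached into the normoxia range. Fibrillin-1 (Fbn1), the core of microfibrils, rose by 1.09 ± 0.09, the latent TGF-beta binding protein Ltbp2 by 1.06 ± 0.11, the basement membrane collagen Col8a1 by 1.72 ± 0.18 and the crosslinking enzyme Loxl2 by 1.06 ± 0.12. Tenascin C (Tnc), a matrix protein of remodelled arteries, went from 8.73 to 14.8 CPM in normoxia to 31.5 to 47.8 in hypoxia (1.65 ± 0.19). Fibronectin (Fn1) rose by 1.06 ± 0.12 and the fibrillar collagen Col3a1 by 0.73 ± 0.15, while Col1a1 had 0.39 ± 0.19 and did not pass (adjusted p 0.11), though it did without normoxia replicate 6 (0.52) or hypoxia replicate 3 (0.50).

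Among pericyte genes, Higd1b, a marker of lung pericytes, lay between 25.8 and 30.4 CPM in normoxia (median 28.2) and was 99.9, 90.3, 118, 61.3 and 91.8 CPM in hypoxia. The lowest hypoxia library, replicate 4, was still above the highest of normoxia (log2 fold change 1.71 ± 0.12, adjusted p 2.5e-10). Rgs5, a regulator of G protein signalling in mural cells, went from 13.3 to 21.2 CPM (median 14.3) to 52.3, 45.7, 33.8, 49.9 and 49.0 CPM (1.55 ± 0.15). The proteoglycan NG2 (Cspg4) rose by 1.15 ± 0.12, periostin (Postn) by 0.77 ± 0.10 and the cation channel Trpc6 by 0.56 ± 0.08. Pdgfrb, the receptor through which pericytes are recruited, had 0.09 ± 0.11 and did not pass (adjusted p 0.55).

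Of the 19 smooth muscle genes 12 did not pass. The actin-binding protein Tagln (SM22) rose from 269 to 380 CPM (median 336) to 673, 751, 663, 602 and 604 CPM (1.01 ± 0.11, adjusted p 1.8e-07). The groups did not overlap. Caldesmon (Cald1) rose by 0.69 ± 0.08 and the regulatory light chain Myl9 by 0.63 ± 0.09. Smooth muscle alpha-actin (Acta2), the usual marker of a muscularised vessel, had 0.19 ± 0.12 and did not pass (adjusted p 0.22), whereas the cardiac actin Actc1 fell by 0.59 ± 0.11. The myosin heavy chain Myh11 fell by 0.41 ± 0.16 (adjusted p 0.042). Its call was lost in 10 of the omissions of a single library, among them those of normoxia replicates 3 to 5 and hypoxia replicates 2, 3 and 5. Both Actc1 and other heart muscle genes are also carried by the muscle sleeve of pulmonary veins: of 16 tested cardiac markers 6 fell and 1 rose, and the list summed to 1404 to 1873 CPM in normoxia and 995 to 1503 in hypoxia. Their part in the Actc1 result was not tested.

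The neurotrophin list had 8 tested genes, of which 4 rose: the receptors Ntrk2 and Ntrk3 (0.81 ± 0.16) and the ligands Bdnf (0.37 ± 0.10) and Ntf3 (0.56 ± 0.22). Sort1, a sorting receptor for the precursor forms, fell by 0.27 ± 0.11. The calls of Ntf3 (adjusted p 0.045) and Sort1 (adjusted p 0.044) lay close to the threshold and were lost in most alternatives. Ntrk2 had by far the widest difference of the list.

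**Figure D2:**
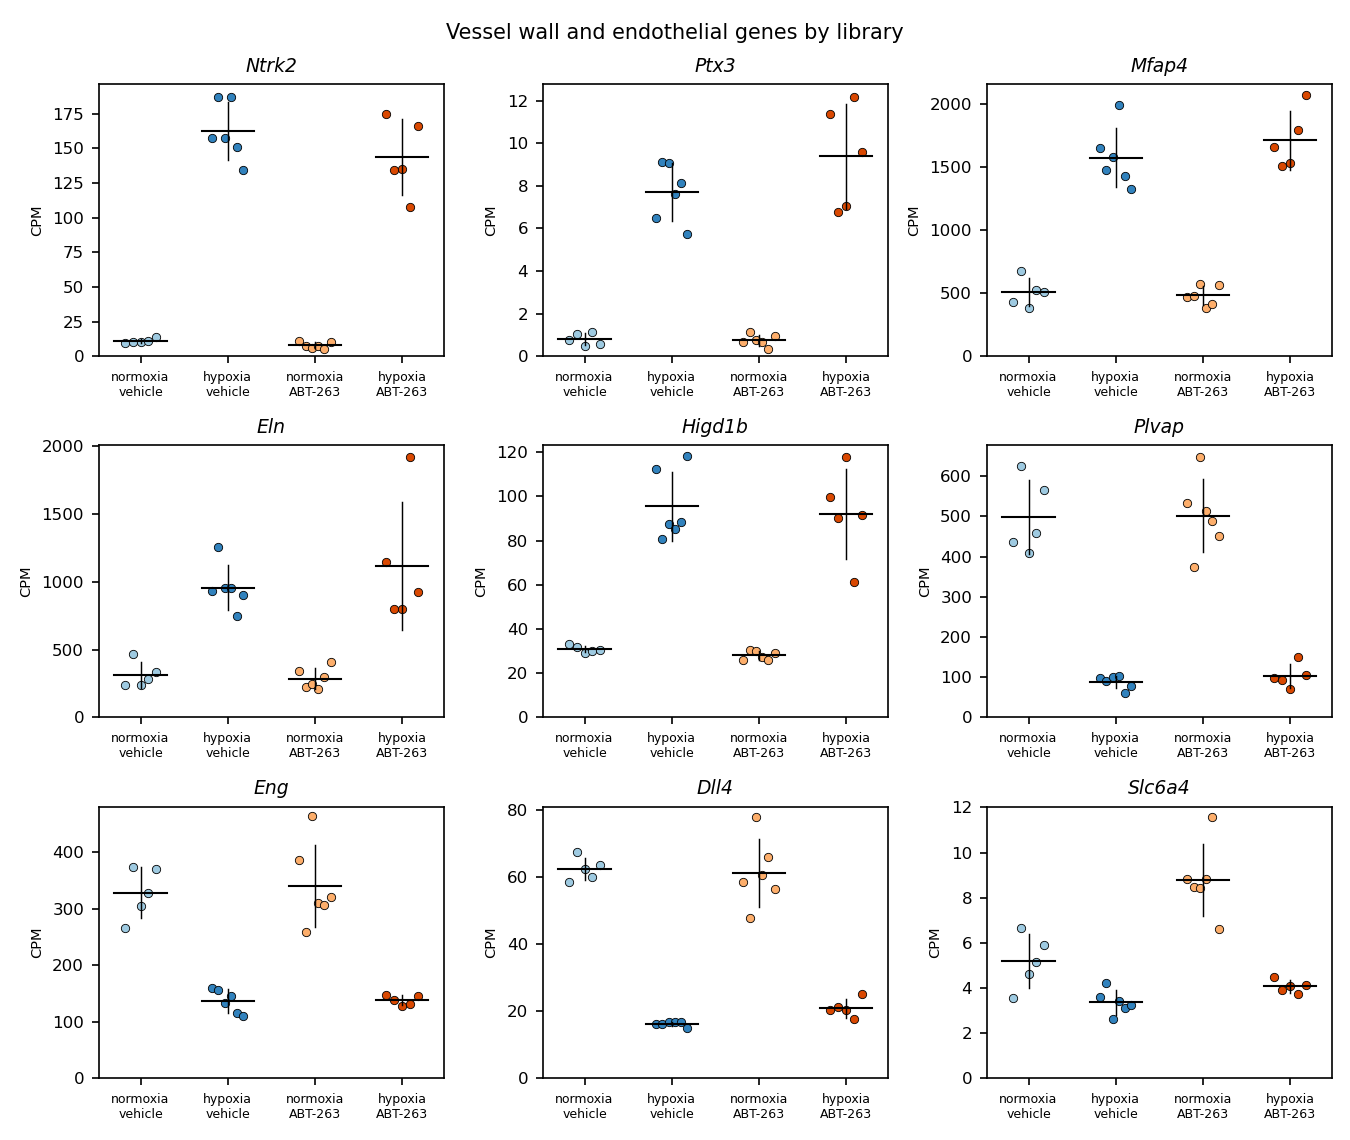
CPM of 9 vessel wall and endothelial genes in the 4 groups; each point is a library, horizontal bars are group means and vertical bars 1 SD. With ABT-263 the hypoxia and normoxia points do not overlap for any of the 9 genes; Eln replicate 4 in hypoxia is the highest point of its panel at 1919 CPM.

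Endothelial genes went both ways. Of 24 pan-endothelial genes tested 6 rose and 6 fell (median log2 fold change -0.04), shares not far from the 17.9% and 21.3% of all genes. Pecam1 (-0.03 ± 0.11) and the junction protein Cdh5 (-0.34 ± 0.15) did not pass, although Cdh5 did without normoxia replicate 2 (-0.41). General capillary cells, which line most of the alveolar capillary bed and serve as its progenitors, had 4 of 12 markers higher and 5 lower. Aerocytes, the thin capillary cells of gas exchange, had 2 of 14 higher and 6 lower (median -0.25).

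Plvap (chr8:71497765-71511752), which forms the diaphragms of endothelial fenestrae and caveolae, was between 374 and 647 CPM in normoxia with a median of 501. Hypoxia libraries had 98.1, 92.5, 69.9, 149 and 105 CPM, a log2 fold change of -2.29 ± 0.18 (adjusted p 3.4e-09) with no overlap. Bmp6, a ligand of the BMP pathway, fell by 1.57 ± 0.15. In the same list the guidance factor Sema3c rose by 1.10 ± 0.13 and the chemokine Cxcl12 by 1.25 ± 0.16. The lipid droplet protein Hilpda, also a HIF target, fell by 0.77 ± 0.15, from 106 to 122 CPM in normoxia to 101, 64.1, 70.1, 36.1 and 61.9 CPM in hypoxia.

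Emcn, a mucin-like glycoprotein of capillary and venous endothelium, rose from 62.3 to 87.6 CPM (median 73.6) to 194, 183, 172, 149 and 214 CPM (1.29 ± 0.09, adjusted p 1e-10). Esm1, a proteoglycan of angiogenic tip cells, took the other direction, from 22.2 to 54.1 CPM (median 38.0) to 9.59, 12.4, 10.1, 9.12 and 8.67 CPM (-1.94 ± 0.23). Neither had overlapping groups. The transcription factor Sox18 fell by 0.94 ± 0.12. Ednrb, the endothelin receptor of aerocytes, fell by 1.003 ± 0.12.

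The VEGF family was split by member. Vegfa, the main ligand, had 556 to 639 CPM in normoxia and 503 to 616 in hypoxia and did not pass (-0.07 ± 0.08, adjusted p 0.51). Placental growth factor (Pgf), a ligand of VEGFR1, rose from 3.66 to 5.26 CPM (median 4.64) to 12.04, 11.99, 13.26, 17.12 and 14.87 CPM (1.60 ± 0.13). The lymphatic ligands Vegfc and Vegfd rose by 1.40 ± 0.13 and 0.95 ± 0.10. Kdr, which is VEGFR2, fell by 0.51 ± 0.10.

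Notch signalling genes fell more often than they rose, with 7 of 13 lower and 4 higher (median -0.34). The endothelial ligand Dll4 was at 47.8 to 77.8 CPM in normoxia (median 59.5) and at 20.2, 21.1, 20.2, 17.5 and 25.1 CPM in hypoxia (-1.56 ± 0.10, adjusted p 2.2e-11), without overlap. Its target Hey1 fell by 0.90 ± 0.13 and the receptor Notch2 by 0.62 ± 0.08. The ligand Jag2 rose by 0.57 ± 0.10 and the target Hey2 by 0.61 ± 0.13. The count of higher genes was 2 without any single one of normoxia replicates 2, 4 or 5 or hypoxia replicate 1.

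Of 16 genes known from heritable pulmonary hypertension, 8 fell and 1 rose (median -0.35). Endoglin (Eng), the BMP9 co-receptor of endothelium, lay between 258 and 463 CPM in normoxia (median 316) and was 147, 138, 128, 131 and 146 CPM in hypoxia (-1.31 ± 0.13, adjusted p 3.9e-08), with no overlap. Bmpr2, the receptor most often mutated in the heritable disease, ranged from 206 to 354 CPM (median 267) against 184, 161, 155, 162 and 222 CPM in hypoxia. Replicate 5 alone reached into the normoxia range (-0.61 ± 0.12, adjusted p 0.00022). The receptor Acvrl1 fell by 0.49 ± 0.11, and Sox17, a transcription factor of arterial endothelium, was the gene that rose (1.05 ± 0.18).

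Genes that set vascular tone also differed. In the nitric oxide list 8 of 13 genes rose and none fell (median 0.56). Endothelial nitric oxide synthase (Nos3) went from 10.9 to 17.8 CPM (median 14.6) to 29.6, 20.3, 22.7, 25.4 and 25.8 CPM (0.77 ± 0.11, adjusted p 8.5e-06), without overlap. Soluble guanylate cyclase, the receptor of nitric oxide, rose in both subunits, Gucy1b1 by 0.64 ± 0.10 and Gucy1a1 by 0.56 ± 0.09. The serotonin transporter Slc6a4, which clears serotonin from the pulmonary circulation, was at 6.604 to 11.59 CPM in normoxia (median 8.66) and at 4.47, 3.91, 4.09, 3.75 and 4.13 CPM in hypoxia (-1.11 ± 0.16). Of the 7 serotonin genes tested, the degrading enzyme Maob was the other that fell (-0.73 ± 0.12), and the receptor Htr2a (1.03 ± 0.25) and Maoa (0.22 ± 0.07) rose. Maoa did not pass without the 3 libraries of conflicting labels, and the count that rose was 1 in that case, with the tag, and without normoxia replicates 2 and 6.

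**Figure D3:**
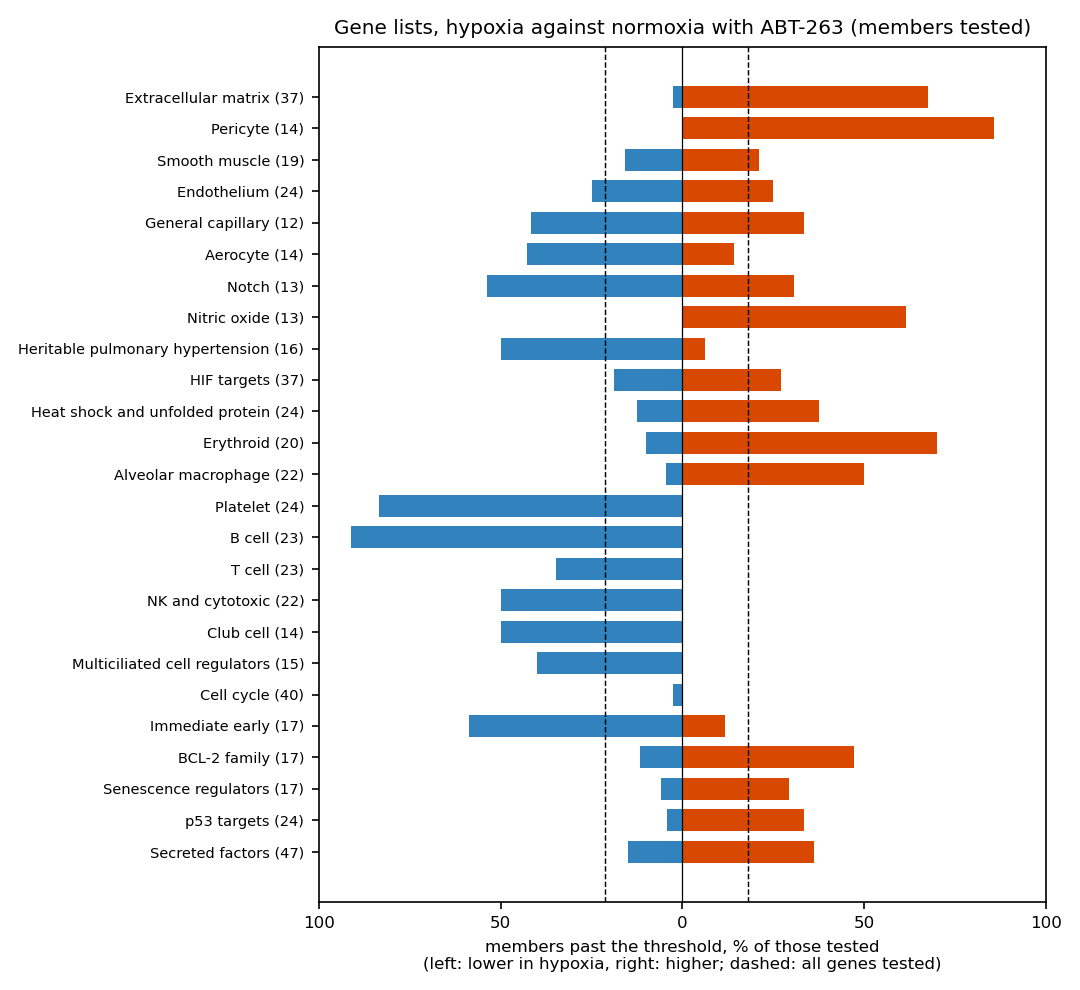
Share of tested members of 25 gene lists that passed in hypoxia against normoxia with ABT-263, lower to the left and higher to the right, with the number tested in brackets; dashed lines mark the 21.3% lower and 17.9% higher among all genes. Pericyte, matrix and erythroid lists extend furthest to the right, and B cell and platelet lists furthest to the left.

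HIF targets were divided. Of 37 tested, 10 rose and 7 fell, against 17.9% and 21.3% of all genes, and the median log2 fold change was -0.07. With vehicle 13 of the 37 rose and 3 fell (median 0.15), against 13.5% and 12.8% of all genes. For 9 of them the treatments differed in the hypoxia response at an unadjusted p under 0.05, against 9.29% of all genes. None passed the interaction test after adjustment. Bnip3, whose promoter is printed above, was at 40.1 to 49.2 CPM in normoxia (median 43.7) and at 94.2, 91.3, 93.7, 69.6 and 87.9 CPM in hypoxia (0.98 ± 0.09, adjusted p 2.2e-08). Fam162a went from 45.8 to 54.4 CPM (median 49.5) to 82.4, 88.0, 96.5, 70.4 and 83.0 CPM (0.76 ± 0.08). Neither overlapped, and replicate 4 was the lowest hypoxia library for both. The mitophagy receptor Bnip3l rose by 0.55 ± 0.07 and the stress gene Ndrg1 by 0.58 ± 0.09.

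The glucose transporter Slc2a3, GLUT3, had 13.1 to 18.9 CPM in normoxia (median 15.6) and 6.78, 5.48, 5.893, 5.799 and 5.04 CPM in hypoxia (-1.43 ± 0.13, adjusted p 1e-08), with no overlap. It fell, as did Slc2a1, GLUT1, which had 30.9 to 52.2 CPM (median 43.2) and 31.6, 25.2, 28.3, 27.3 and 24.9 CPM (-0.61 ± 0.11), where hypoxia replicate 1 overlapped the lowest normoxia library. With vehicle the Slc2a1 difference was 0.03 ± 0.11, and the difference between treatments was -0.64 ± 0.15 (unadjusted p 0.00025). Lactate dehydrogenase A (Ldha) had 0.15 ± 0.09, which did not pass, and 0.24 without normoxia replicate 2, which did. Without hypoxia replicate 5 the count of HIF targets that fell was 4. Slc2a1, Ldha and the HIF target Ankrd37 were chosen after their values were seen.

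Ankrd37 varied widely among hypoxia libraries. It was 5.11 to 7.32 CPM in normoxia (median 6.39) and 111, 12.9, 11.54, 6.86 and 7.52 CPM in hypoxia, where replicate 1 was far above the others and replicate 4 lay within the normoxia range (2.26 ± 0.67, adjusted p 0.013). Without replicate 1 the log2 fold change was 0.64 and did not pass. In hypoxia with vehicle its libraries ran from 30.2 to 136 CPM, all above the 5.37 to 10.96 CPM of normoxia with vehicle. Replicate 1 of hypoxia with ABT-263 is a library whose treatment tag names vehicle. The 136 CPM belonged to replicate 1 of hypoxia with vehicle, whose tag names ABT-263, so that this value goes against its tag. Which treatment these libraries received was not tested.

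Heat shock genes also varied among the hypoxia libraries. Of 24 genes of the heat shock and unfolded protein list 9 rose and 3 fell (median 0.16), against 17.9% and 21.3% of all genes. The 9 became 6 without hypoxia replicate 5. For 1 of the 24 every hypoxia library lay above every normoxia library. Hspa1b was at 2.24 to 9.59 CPM in normoxia (median 5.07) and at 3.32, 21.3, 26.8, 33.2 and 168 CPM in hypoxia (3.25 ± 0.65, adjusted p 0.00075). Replicate 1 lay inside the normoxia range, replicates 2 to 4 above it, and replicate 5 far above the other 4. Hspa1a had nearly the same values, at 3.53, 19.0, 25.6, 30.8 and 163 CPM in hypoxia (3.15 ± 0.67), and since these near-identical genes share reads, the division of counts between them is uncertain.

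Dnajb1 and Dnaja1 were, like Hspa1b, lowest in hypoxia replicate 1 and highest in replicate 5. Dnajb1, a partner of HSP70, had 44.9 to 55.3 CPM in normoxia (median 46.5) and 44.3, 103, 122, 114 and 230 CPM in hypoxia (1.35 ± 0.25, adjusted p 0.00034). Dnaja1 had 63.9 to 76.8 CPM (median 73.0) and 73.9, 119, 147, 146 and 262 CPM (1.05 ± 0.20). For both, replicate 1 was under the upper end of the normoxia range. The stress transcription factor Ddit3 (CHOP) rose by 0.58 ± 0.10, with all 5 hypoxia values (25.0, 29.99, 34.1, 27.7 and 43.9 CPM) above the 20.2 to 24.7 CPM of normoxia. Hspa8, the constitutive HSP70, and the endoplasmic reticulum chaperone Hspa5 did not pass (0.34 ± 0.16 and 0.03 ± 0.13), but Hspa8 did without hypoxia replicate 1 (0.51).

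With vehicle none of the 24 genes of this list rose and 5 fell, against 13.5% and 12.8% of all genes. Hspa1b had 0.22 ± 0.81 with vehicle. For 10 of the 24 the treatments differed in the hypoxia response at an unadjusted p under 0.05, against 9.29% of all genes, and none passed after adjustment (Hspa1b 3.02 ± 1.04, adjusted p 0.38). Without hypoxia replicate 5 the log2 fold changes of Hspa1b and Hspa1a were 2.01 and 1.87, and both still passed. The count of falling genes in the list was 1 without normoxia replicate 6, hypoxia replicate 1 or 3, or the 3 libraries of conflicting labels.

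**Figure D4:**
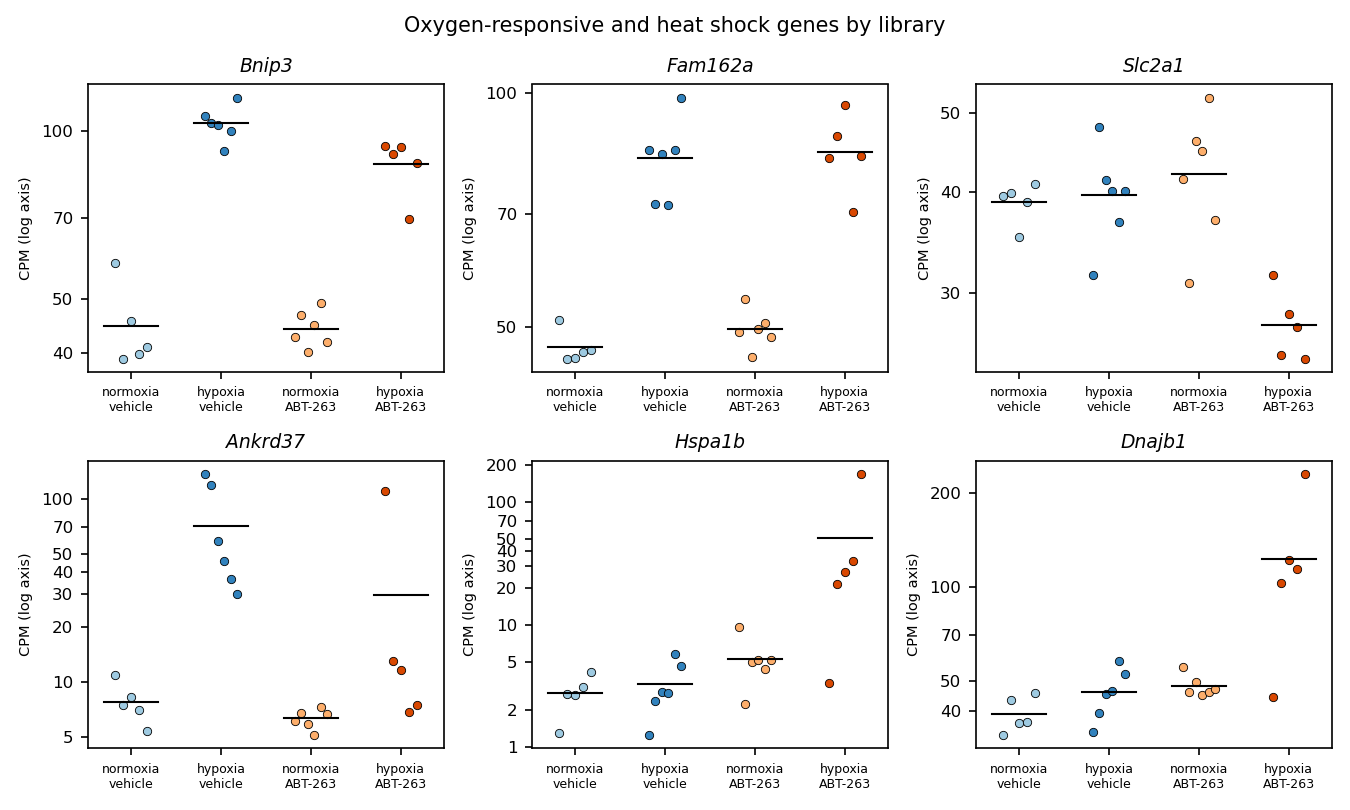
CPM on a log axis of 6 genes in the 4 groups, with each library as a point and group means as bars. Bnip3 and Fam162a are higher in hypoxia with either treatment; in hypoxia with ABT-263 the library with 111 CPM of Ankrd37 is the one with the lowest Hspa1b (3.32 CPM) and Dnajb1 (44.3 CPM).

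Blood cell genes moved in opposite directions by lineage. Red cell genes rose, with 14 of 20 erythroid genes higher, 2 lower and a median of 0.90. Genes of haemoglobin took 0.474% ± 0.127 of all counts in normoxia (SD, n = 6) and 1.10% ± 0.23 in hypoxia (SD, n = 5). The difference of 0.63 percentage points had an exact two-sided permutation p of 0.00216, the smallest these group sizes allow. Alas2, the first enzyme of haem synthesis in erythroid cells, rose by 1.30 ± 0.17. Values of single globin genes are uncertain because their sequences are close.

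Most B cell genes fell. In the B cell list 21 of 23 were lower and none higher (median -0.91), and in 20 of the 23 the groups did not overlap. Cd79a, the signalling chain of the B cell receptor, was at 31.9 to 44.0 CPM in normoxia (median 37.8) and at 14.8, 14.5, 12.5, 15.3 and 15.8 CPM in hypoxia (-1.37 ± 0.13, adjusted p 2e-08). The IgM Fc receptor Fcmr fell by 1.55 ± 0.15. With treatment read from the tag, 13 B cell genes were lower. In vehicle lungs 21 of the 23 were lower in hypoxia (median -0.87).

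In the T cell list 8 of 23 were lower and none higher, with Trac, the T cell receptor alpha constant region, falling by 1.04 ± 0.15 and the CD3 chain Cd3g by 0.43 ± 0.12. That count was 5 without the 3 libraries of conflicting labels and 3 with the tag. In the list of natural killer and cytotoxic cells 11 of 22 were lower, among them the interleukin-2 receptor chain Il2rb (-1.14 ± 0.16) and the transcription factor Tbx21 (-1.22 ± 0.24), and 6 with the tag. More genes of both lists fell with vehicle, where 12.8% of all genes fell, against 21.3% with ABT-263. There 15 of the 23 T cell genes were lower (median -0.64, against -0.28 with ABT-263). Of the 22 natural killer and cytotoxic genes 16 were lower (median -0.85, against -0.61 with ABT-263). In normoxia both lists had a lower mean log2 CPM with ABT-263 than with vehicle, without overlap. For T cell genes it was 2.43 to 2.89 with ABT-263 and 2.97 to 3.44 with vehicle. For natural killer and cytotoxic genes it was 1.84 to 2.41 and 2.52 to 3.12.

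Platelet genes fell furthest of the blood cell lists by median. Of 24 tested, 20 were lower and none higher (median -1.16), and 15 did not overlap. The fibrinogen receptor chain Itga2b went from 23.2 to 48.6 CPM (median 37.1) to 15.4, 10.6, 11.7, 8.27 and 9.33 CPM (-1.72 ± 0.20), and the groups did not overlap. With vehicle 13 of the 24 fell (median -0.61), against 12.8% of all genes. For 9 the hypoxia responses of the treatments differed at an unadjusted p under 0.05, against 9.29% of all genes. None of these passed after adjustment. The mean log2 CPM of the list was higher in normoxia with ABT-263 (3.20 to 3.82) than in normoxia with vehicle (2.66 to 3.43), though the ranges overlapped. In hypoxia the levels were alike, at 2.26 to 2.79 with ABT-263 and 2.16 to 2.69 with vehicle.

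Alveolar macrophage genes rose in 11 of 22 cases and fell in 1 (median 0.39). The lysosomal protease Ctsk went from 24.4 to 35.7 CPM (median 32.9) to 74.3, 82.7, 79.0, 98.7 and 69.0 CPM (1.35 ± 0.11, adjusted p 1.4e-09). The mannose receptor Mrc1 rose by 0.88 ± 0.07, the chitinase-like Chil3 by 0.97 ± 0.17 and the lectin Siglecf, which marks these cells, by 0.66 ± 0.13. Of 20 markers of monocytes and interstitial macrophages 9 fell and 3 rose, and of 18 neutrophil markers 4 fell, a share near that of all genes, and 1 rose. The gene of the alveolar macrophage list that fell did not pass without any single one of normoxia replicates 1, 3 or 5, hypoxia replicates 2, 3 or 5, or the 3 libraries of conflicting labels. The 3 of the monocyte list that rose became 5 without hypoxia replicate 1, normoxia vehicle replicate 2 or hypoxia vehicle replicate 6. Without normoxia replicate 1 the neutrophil markers that fell were 7, and the count that rose was 0 to 2 with single libraries left out.

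**Figure D5:**
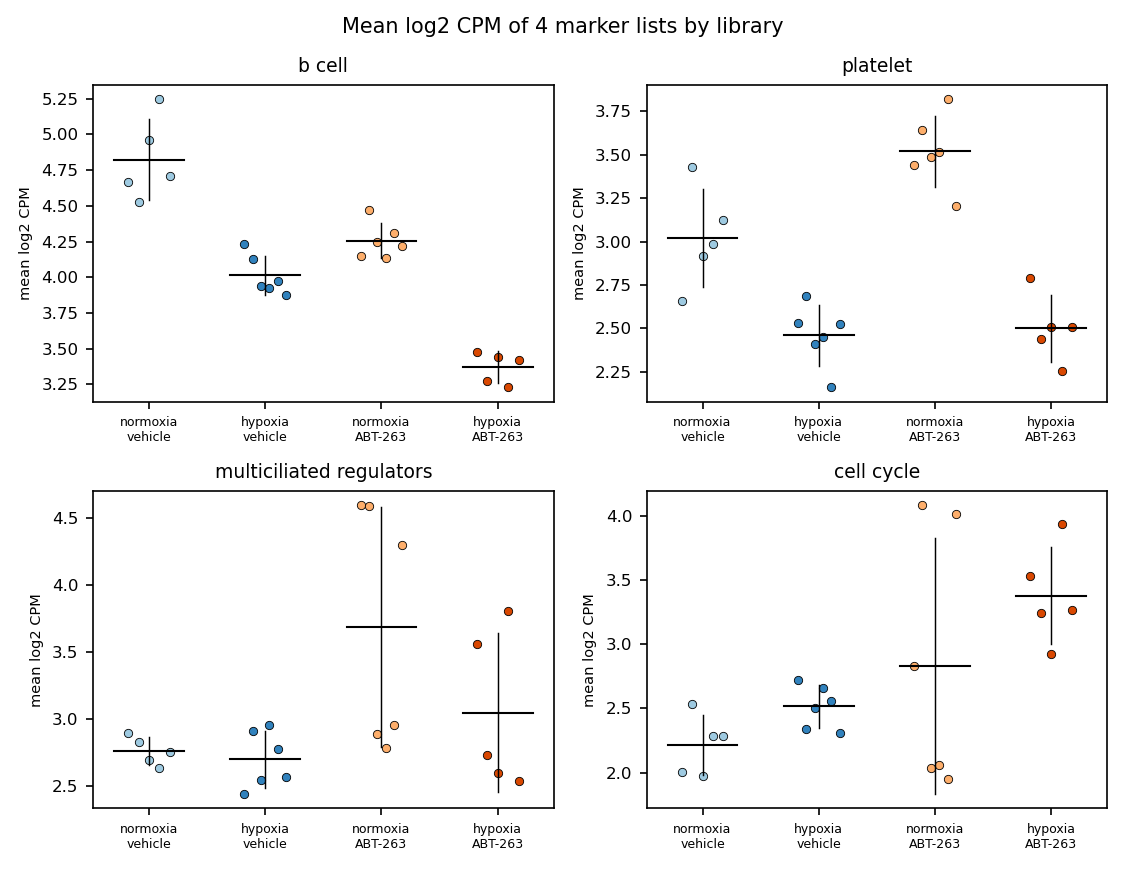
Mean log2 CPM of the tested members of 4 gene lists in each library by group, with bars for the mean and 1 SD. B cell and platelet values in hypoxia with ABT-263 lie under all normoxia ABT-263 libraries; cell cycle values of normoxia ABT-263 replicates 2 (4.08) and 6 (4.02) lie above all 5 hypoxia libraries with ABT-263.

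In the club cell list 7 of 14 genes were lower and none higher (median -0.57), against 21.3% and 17.9% of all genes. The count higher was 1 without normoxia ABT-263 replicate 2, hypoxia replicate 4 or vehicle normoxia replicates 1 or 5, and with the tag. With vehicle 2 were lower and 1 higher, against 12.8% and 13.5% of all genes. Mean log2 CPM of the list overlapped with ABT-263, at 7.26 to 9.13 in normoxia and 7.82 to 8.99 in hypoxia. The secretoglobin Scgb1a1, the main secreted protein of club cells, went from 45164 to 86168 CPM (median 73903) to 44123, 46793, 38701, 39461 and 35190 CPM, a fall of 0.77 ± 0.16 (adjusted p 0.00064) in which hypoxia replicate 2 lay above the lowest normoxia library. The cytochrome Cyp2f2 fell by 0.97 ± 0.16 and the matrix protein Chad by 0.99 ± 0.15. Counts of ABT-263 libraries in normoxia differed widely in genes that drive multiciliated cells.

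Of 15 regulators of multiciliated cells 6 fell and none rose (median -0.83). Their mean log2 CPM was 4.59, 4.59 and 4.30 in normoxia replicates 1, 2 and 6 and 2.78 to 2.96 in replicates 3, 4 and 5. In hypoxia it was 3.56 and 3.81 in replicates 1 and 4 and 2.54 to 2.73 in the other 3. Foxj1, the master regulator of motile cilia, was at 229 to 351 CPM in normoxia (median 242) and at 134, 162, 175, 221 and 191 CPM in hypoxia (-0.57 ± 0.17, adjusted p 0.0095), without overlap. Rfx2, which acts beside it, fell by 0.84 ± 0.10 and Trp73 by 0.83 ± 0.19. The count of falling genes was 3 without hypoxia replicate 5, without normoxia replicates 2 and 6, and with the tag.

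Of 40 cell cycle genes 1 fell and none rose, although the median was 0.26. Ccna2, the cyclin of DNA synthesis and mitosis, ran from 3.46 to 26.6 CPM in normoxia (median 6.16) and was 22.5, 22.2, 11.6, 38.8 and 19.8 CPM in hypoxia (1.005 ± 0.44, adjusted p 0.081). It passed without normoxia replicate 2 (1.32) or 6 (1.46). Without normoxia replicate 2 there were 11 cell cycle genes higher, without replicate 6 there were 9, and without both 32. The gene that passed as lower was the replication factor Mcm4 (-0.26 ± 0.09, adjusted p 0.028), and it did not pass without normoxia replicates 2, 5 or 6 or any of hypoxia replicates 1, 2, 3 or 5.

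Immediate early genes, which respond within minutes to stimuli that include tissue handling, fell in 10 of 17 cases and rose in 2 (median -0.58). Btg2, an antiproliferative gene, fell by 0.63 ± 0.17, Egr3 by 1.06 ± 0.29 and Fosb by 1.98 ± 0.68, whereas the Krüppel-like factors Klf4 (0.77 ± 0.16) and Klf6 (0.43 ± 0.09) rose. Fosb did not pass without normoxia replicates 5 or 6 or hypoxia replicates 1 or 5. The 10 became 7 without normoxia replicate 5 and 12 without normoxia replicate 2. For 1 of the 17 every hypoxia library lay below every normoxia library. Mean log2 CPM of the list was 4.57 to 5.92 in normoxia and 4.79 to 4.94 in hypoxia with ABT-263. Of all genes 21.3% fell and 17.9% rose with ABT-263. With vehicle 2 of the 17 fell and 1 rose, against 12.8% and 13.5% of all genes.

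Transcripts of the drug's targets and of their relatives were also compared. Because both groups received ABT-263, this comparison cannot check the action of the drug. Of 17 BCL-2 family genes 8 rose and 2 fell (median 0.23). Bcl2 had 14.7 to 18.9 CPM in normoxia (median 17.0) and 24.1, 18.9, 23.8, 25.5 and 21.1 CPM in hypoxia (0.43 ± 0.09, adjusted p 0.00046), where replicate 2 met the highest normoxia library. Bcl2l1, coding for BCL-XL, and Bcl2l2, coding for BCL-W, did not pass (0.04 ± 0.11 and 0.01 ± 0.11). Mcl1, a survival protein that ABT-263 does not bind well, rose by 0.36 ± 0.09, and the pro-apoptotic Bax and Bad by 0.40 ± 0.08 and 0.47 ± 0.09.

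The lists of senescence regulators, p53 targets and secreted factors each had more genes higher than lower. Of all genes 17.9% were higher and 21.3% lower. The medians of these lists were small, at 0.08, 0.04 and 0.17. Cdkn1a (p21) was at 71.6 to 101 CPM in normoxia (median 86.1) and at 68.4, 64.7, 66.1, 105 and 75.7 CPM in hypoxia (-0.19 ± 0.16, adjusted p 0.38), with overlapping groups. Cdkn2a, which codes for p16 and p19, stayed under the filter on low counts, with 4 to 15 counts per library and 0.698 ± 0.304 CPM in normoxia (SD, n = 6) against 0.438 ± 0.0825 in hypoxia (SD, n = 5), and was not tested. Of 17 senescence regulators tested 5 rose, led by the kinase inhibitor Cdkn2c (0.81 ± 0.11), and 1 fell. The gene that fell did not pass in 10 of the omissions of a single library. The 5 became 3 with the tag and without normoxia replicates 3 or 4 or hypoxia replicate 4. Among 24 p53 targets 8 rose and 1 fell (3 with the tag, and 2 without normoxia replicate 6 or hypoxia replicates 1 or 5), with the death receptor Fas at 0.68 ± 0.09 and the receptor Eda2r at 1.35 ± 0.24. In the list of secreted factors 17 of 47 rose and 7 fell (4 without hypoxia replicate 3 or without the 3 libraries of conflicting labels), with Igfbp2 at 1.38 ± 0.15 and Igfbp3 at -1.91 ± 0.17.

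The same oxygen difference was measured with vehicle in other mice, whose libraries entered the same model and its estimate of spread. A model of the 11 ABT-263 libraries alone called 5864 genes. With vehicle 4380 genes (26.3%) passed, 2251 (13.5%) higher and 2129 (12.8%) lower. Of these, 270 (1.62% of those tested) were higher and 165 (0.992%) lower by at least 2-fold, and groups did not overlap for 1168 genes (7.02%) that were higher and 1158 (6.96%) that were lower in hypoxia. Both comparisons called 3401 genes in the same direction, which is 52.1% of the calls with ABT-263 and 77.6% of those with vehicle, and 6 in opposite directions. Of the 3118 genes called only with ABT-263, 2831 (90.8%) had the same sign with vehicle. Across genes, which are not independent replicates, the log2 fold changes of the treatments had a Pearson correlation of 0.70 and a Spearman correlation of 0.72.

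Whether the hypoxia response itself depended on ABT-263 was tested by the interaction term. No gene passed by edgeR's quasi-likelihood test (0% of 16638), with 1546 (9.29%) at an unadjusted p under 0.05, whereas the Wald test of DESeq2 passed 17 and limma-voom 0. The smallest unadjusted p values belonged to the gene model Gm3055 (1.47 ± 0.29), the potassium channel Kcnj13 (-0.66 ± 0.14), the carboxylesterase Ces2e (1.12 ± 0.24), the transporter Abcg3 (0.67 ± 0.14) and pyruvate carboxylase Pcx (-0.61 ± 0.13), all with an adjusted p of 0.29. Pcx, which feeds the citric acid cycle and fatty acid synthesis, was at 102 to 124 CPM in normoxia (median 112) and at 66.4, 68.4, 70.3, 81.3 and 53.7 CPM in hypoxia (-0.73 ± 0.09), without overlap, while with vehicle it had -0.12 ± 0.09. Kcnj13 fell by 0.53 ± 0.10 with ABT-263 and had 0.13 ± 0.10 with vehicle. The median standard error of the interaction was 0.16.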

How the data were processed

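Whole-lung RNA of 22 mice was read. Per the labels' protocols, RNA was extracted with RNeasy kits, made into libraries with a stranded TruSeq mRNA kit and sequenced on a NextSeq 500. The authors deposited a table of RSEM expected counts per gene, and the submitters' processing notes name Trimmomatic, STAR, RSEM and GRCm38 without versions. Such counts share a read among the genes it matches, so near-identical genes are uncertain.

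The deposited values were first rounded. Low genes were removed with filterByExpr (minimum count 10), scaled by TMM and fitted in one model of 4 groups with edgeR 4.0.16 (robust quasi-likelihood F test, two-sided, R 4.3.3, limma 3.58.1), with Benjamini-Hochberg adjustment over 16638 genes and a threshold of 0.05. The standard error is the log2 fold change divided by the square root of F. Totals were 11509007 to 15744193 counts. Levels are CPM from edgeR (prior count 2 on the log scale). Gene coordinates are from GENCODE M21 on GRCm38, promoters from RefSeq. The fits were tested on simulated counts. Figures used matplotlib 3.10.9.

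Groups follow the titles, replicate numbers follow accession order and pair no samples, and no columns of other samples were present. Libraries of a group differed by more than sampling noise (chi-square per gene 5.35 to 39.0). The comparison was repeated with limma-voom, DESeq2 1.42.0, RLE factors, no TMM, no filter, 1 CPM in 4 libraries, the 11 libraries alone, no haemoglobin genes, a 2-fold threshold, each library left out, the 3 libraries of conflicting labels left out or read by tag, and normoxia ABT-263 replicates 2 and 6 left out. For the haemoglobin and muscle shares, the alternatives without libraries were added after seeing the data.

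The members and gene lists were chosen with earlier results of these data known. Genes named are from the 12 largest changes in each direction (at least 2 CPM in the higher group, no gene models or receptor segments), the 5 smallest p values of each list, any member of the endothelial, mural, matrix and heat shock lists, the 5 smallest interaction p values, and Cdkn1a, Cdkn2a, Bcl2, Bcl2l1, Bcl2l2, Mcl1, Bmpr2, Slc6a4, Ntrk2 and Plvap. Sftpc, Ager, Slc2a1, Ldha and Ankrd37 were added after their values were seen.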

Additional observations from a re-analysis of the deposited data

Results flagged for a closer look

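In the 388 groups of 5 or 6 libraries examined for genes and lists named here, 32 had a library far from the others by Dixon's criterion, and chance gives about 1 in 20 such groups. Genes are not independent, so libraries that stand apart are flagged together.

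Normoxia ABT-263 replicate 2 stood highest for skeletal muscle genes: Atp2a1 (518 CPM against 2.76 to 9.04 in the other 5), Ckm (464), Mylpf (270), Neb (86.8), Ryr1 (99.7), Tnni2 (253) and Tnnt3 (463). Its mean log2 CPM over the muscle list was 6.84 against 2.64 to 3.06, and its share of counts in that list 0.528%. The same library had the highest share of mitochondrially encoded counts (5.72% against 4.37% to 4.75%) and the lowest Mcl1 (397 CPM), and it was highest for Amd1, an enzyme of polyamine synthesis (40.2 CPM).

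Hypoxia ABT-263 replicate 4 was lowest for Bnip3 (69.6 CPM against 87.9 to 94.2), Abcg3 (8.70 CPM) and the natural killer list (mean log2 CPM 0.88 against 1.53 to 1.74), and highest for Cdkn1a (105 CPM against 64.7 to 75.7), Col8a1 (50.4 CPM) and Bcl2l1 (134 CPM). Hypoxia replicate 5 was highest for Hspa1a (163 CPM against 3.53 to 30.8), Hspa1b (168 CPM) and Klf4 (197 CPM). Hypoxia replicate 1 was highest for Ankrd37 (111 CPM against 6.86 to 12.9), Kdr (245 CPM against 158 to 182), Epas1 (1028 CPM against 888 to 920) and Amd1 (128 CPM).

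Among the other normoxia libraries, replicate 6 was highest for Col3a1 (676 CPM) and Ddit3 (24.7 CPM) and lowest for Igfbp2 (208 CPM), replicate 4 was lowest for Dnaja1 (63.9 CPM) and Sema3c (285 CPM), replicate 3 was highest for Col8a1 (17.4 CPM), and replicate 1 was highest for Foxj1 (351 CPM against 229 to 274).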

How the results depend on the processing

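The number of genes passing in hypoxia with ABT-263 (6525) was 5565 to 6646 over the tools, scalings, filters and label choices tried without a fold requirement, and 5649 (without hypoxia ABT-263 replicate 3) to 6724 (without normoxia ABT-263 replicate 2) with single libraries left out. A 2-fold requirement left 552. Without the 3 libraries of conflicting labels it was 5565, and without normoxia ABT-263 replicates 2 and 6 it was 6659. Apart from the 2-fold requirement, the share of calls that were higher was 45.4% to 50.6%. The 3401 calls shared with vehicle became 2710 to 3579 with single libraries left out and 267 with the 2-fold requirement. No gene passed the interaction in the chosen fit, against 17 with DESeq2, 1 without the libraries of conflicting labels (Amd1), 8 without normoxia ABT-263 replicates 2 and 6 (among them Slc2a1, Birc5 and Cenpa) and 0 to 2 with single libraries left out, the 2 being Tmem252 and Amd1 without hypoxia ABT-263 replicate 1; the cause was not tested. These genes were chosen after their values were seen. The haemoglobin difference was 0.546 to 0.686 percentage points with single libraries left out, and the muscle difference -0.0988 to 0.00121. Of 152 tested genes named, 130 kept their direction and their side of the threshold in every alternative but the 2-fold requirement. Reversed were Mylpf (-4.42 to 0.16 with single libraries left out, 0.082 without normoxia ABT-263 replicates 2 and 6), Neb (-3.75 to 0.76, and 0.85) and Tnni2 (-3.66 to 0.68, and 0.75), all high in replicate 2. No paired analysis was possible because the labels give no replicate numbers and those used follow accession order. Depth limits genes of a few counts, such as Cdkn2a with 4 to 15 counts per library.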

Other observations

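Epas1, which codes for HIF-2 alpha, the form abundant in lung endothelium, was at 1573 to 2581 CPM in normoxia (median 1979) and at 1028, 920, 902, 888 and 910 CPM in hypoxia with ABT-263, a log2 fold change of -1.09 ± 0.10 (adjusted p 2.9e-08). Hif1a, which codes for HIF-1 alpha, took the other direction, from 40.3 to 46.8 CPM (median 42.2) to 49.3, 52.0, 47.2, 62.5 and 58.2 CPM (0.33 ± 0.09, adjusted p 0.0039). In neither did the groups overlap. Vhl, the ligase subunit that marks HIF for breakdown, rose by 0.46 ± 0.07, and the HIF antagonist Cited2 fell by 0.39 ± 0.09. Of the 10 genes of the oxygen sensing list 2 rose and 3 fell, shares not far from the 17.9% and 21.3% of all genes. In the BMP and TGF-beta list 8 of 28 rose (5 without normoxia ABT-263 replicates 2 and 6) and 9 fell; the inhibitor Smad6, a target of BMP signalling, fell by 1.64 ± 0.18 and the ligand Bmp2 rose by 1.21 ± 0.15.

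Lipid synthesis genes fell in 11 of 23 cases and rose in 4 (2 without hypoxia ABT-263 replicate 3 or with treatment read from the tag), with a median of -0.22, against 4 lower and 3 higher with vehicle, and the difference between treatments passed for none of them after adjustment. Acaca, the first enzyme of fatty acid synthesis, was at 25.5 to 42.3 CPM in normoxia (median 34.3) and at 19.5, 19.6, 16.2, 22.6 and 18.7 CPM in hypoxia (-0.83 ± 0.11). The transcription factors Srebf1 and Srebf2, which switch on this pathway, fell by 0.61 ± 0.09 and 0.54 ± 0.09, and the sterol desaturase Sc5d rose by 0.36 ± 0.07. Among 17 clock genes 2 rose (1 without normoxia ABT-263 replicates 2 or 5 or hypoxia replicates 2, 3 or 5) and 3 fell, shares under those of all genes. The activators Npas2 (-1.44 ± 0.20) and Arntl (-0.66 ± 0.13) fell and the repressor Nr1d2 rose (1.07 ± 0.18), and the time of tissue collection is not given in the sources used here.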
